A study of Mus musculus with 4 samples.

Results

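The small leucine-rich proteoglycans are secreted proteins built from leucine-rich repeats that bind collagen fibrils and take part in setting fibril width and spacing. Many carry glycosaminoglycan chains, and several also bind growth factors or innate immune receptors. In joint capsule, tendon and ligament they are among the main noncollagenous components of the fibrous matrix. The 9 genes described here, Dcn, Bgn, Lum, Fmod, Ogn, Prelp, Aspn, Omd and Podn, were taken by symbol as the collagen-binding genes of the family. All 9 were found once each among the 16416 genes of the table, with matching Entrez identifiers.

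Fibroblasts were grown out of mouse shoulder joint capsule taken 1 week after immobilization, a model of frozen shoulder, and their RNA was sequenced at passage 2. There were 4 libraries, 1 per group. They came from wild-type C57BL6/J cells, untransfected miR-26a -/- cells, miR-26a -/- cells with Silencer Negative Control, and miR-26a -/- cells with a miR-26a mimic. Both oligonucleotides were transfected at 10 nM for 24 hours. All 4 cultures came from capsule of immobilized shoulders, so no library stands for an unperturbed joint. The labels do not say how many animals gave a culture, whether the 3 knockout libraries share a culture, or which miR-26a locus was deleted. MiR-26a was not measured here, so the genotype was not checked against it.

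Depth ranged from 17598763 to 19392655 estimated counts per library. Macrophage transcripts were abundant in every library beside those of fibroblasts, although the cells were named synovial fibroblasts. The fibroblast markers Col1a2 and Vim stood at 2399.8 to 5431 and at 2194 to 3740 TPM, and the macrophage gene Lyz2 at 14913 to 18991 TPM. TPM is the deposited level, scaled for gene length and library size. With 1 library per group there is no replicate check and no p-value, and each direction below compares libraries. Parentheses after a log2 ratio hold its exact 95% binomial interval, which reflects only the error of counting. A gene was measured with at least 1 CPM, the count scaled to library size alone, in either library of a comparison. Calls needed a 2-fold or larger difference together with an interval that leaves out 0. In bulk RNA, fewer cells of a type and less RNA per cell cannot be told apart.

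The guide strand of the mimic as the labels give it, and a natural miR-26a of the mouse, are shown because their seed defines the sites sought in the proteoglycan transcripts. Capitals mark the seed, bases 2 to 8 from the 5′ end. The natural sequence is from RefSeq (GRCm38.p6), at chr9:119031811-119031832 on the plus strand, and the copy at chr10:126995543-126995564 reads the same.
mimic guide: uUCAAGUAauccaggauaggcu
mmu-miR-26a-5p: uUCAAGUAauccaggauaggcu
The guide is the same as the natural microRNA over all 22 bases. The second strand in the labels differs from mmu-miR-26a-1-3p by A14C, counted from the 5′ end with the natural base first.

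Of the 9 proteoglycan transcripts, 1 held the full seed site. Aspn, which encodes asporin, has the 8-base site TACTTGAA at position 49 of a 3′ untranslated region (UTR) of 926 bases in the GENCODE M21 annotation of GRCm38. The 7-base complement of the seed, TACTTGA, was found in 12.3% of the measured genes with an annotated 3′ UTR, and the 8-base form in 5.34%. Prelp and Podn each have the shorter ACTTGAA, present in 18.2% of such genes. Bgn, and Prelp at a further position, have only the 6 bases ACTTGA. No match was found in the 3′ UTRs of Dcn, Lum, Fmod, Ogn and Omd, which says only that these letters are not in them. The sites are given with 30 bases of UTR and the matching bases in capitals, and coordinates are those of the capitals.
Aspn, chr13:49566680-49566687, plus strand: tacatttggaaTACTTGAActgtcctagta
Prelp, chr1:133912567-133912573, minus strand: tcctctgacagcACTTGAAggctggtggcc
Podn, chr4:108015123-108015129, minus strand: ttccctatggggACTTGAAccttctgcctt

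Biglycan was by far the most abundant of the 9 transcripts in every library. Bgn, which encodes biglycan, a proteoglycan with chondroitin or dermatan sulfate chains, made up 77.0% of the summed TPM of the family in wild-type cells and 68.8%, 74.7% and 72.9% in the knockout, negative-control and mimic libraries. Fmod and Prelp followed in all 4 libraries. Decorin, the close relative of biglycan, was at 108 TPM in wild-type cells, 61.5-fold below Bgn per length. Within the wild-type library the order was Bgn, Fmod, Prelp, Aspn, Ogn, Dcn, Lum, Podn and Omd, and of these adjacent places Dcn and Lum could not be separated by their counting intervals. In the 3 knockout libraries the order was Bgn, Fmod, Prelp, Ogn, Dcn, Aspn, Podn, Lum and Omd, with Aspn moved from the fourth place to the sixth. Podn and Lum could not be separated in the untransfected knockout library.

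**Figure D1:**
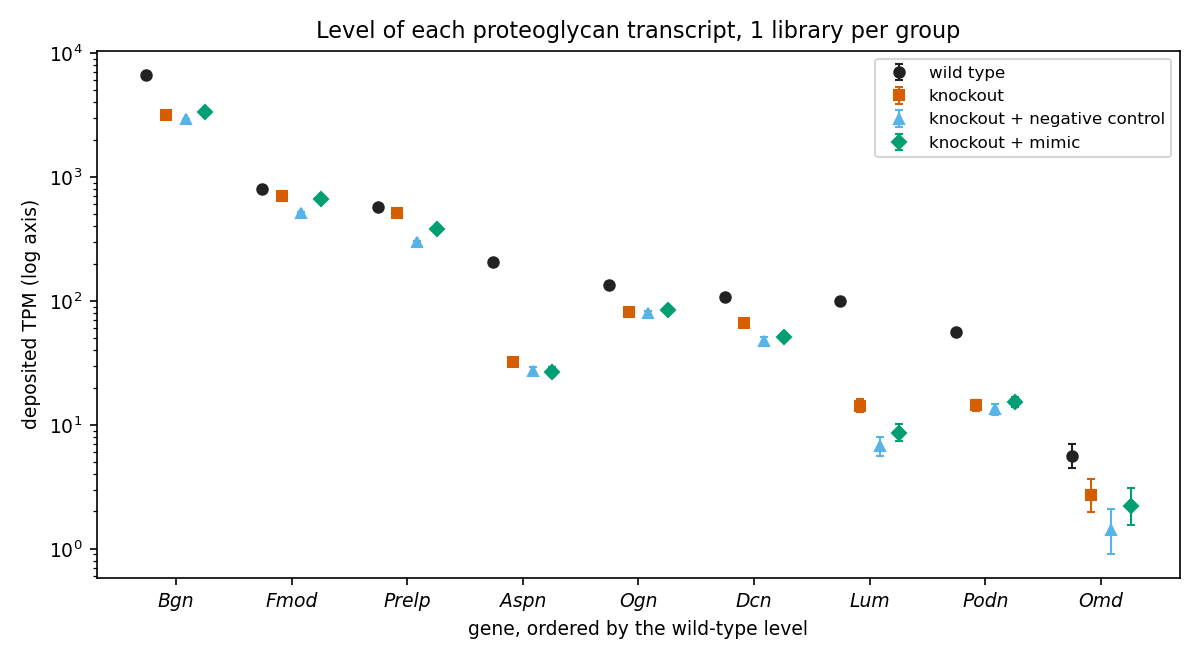
Deposited TPM on a log axis for the 9 genes in wild-type (circles), knockout (squares), negative-control (triangles) and mimic (diamonds) cells, 1 library per group, with bars for the exact 95% Poisson counting interval. The wild-type point is the highest for every gene, with the widest gaps for Aspn, at 207 against 26.8 to 32.1 TPM, and Lum, at 100.4 against 6.74 to 14.3 TPM.

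The family took up a smaller share of the counts in all 3 knockout libraries. Its 9 genes held 0.966% of counts in wild-type cells (exact Clopper-Pearson 95% interval 0.961 to 0.970). The share was 0.599% (0.595 to 0.603) in knockout cells, 0.498% (0.495 to 0.501) with the negative control and 0.565% (0.562 to 0.569) with the mimic. Without Bgn the shares were 0.266%, 0.227%, 0.154% and 0.188%, in the same order. The wild-type library was highest and the negative-control library lowest with and without Bgn.

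Knockout and wild-type cells were compared to see which proteoglycans differ with the loss of miR-26a. Transcripts of lumican, asporin and podocan were lower in the knockout library by 3.60-fold to 6.38-fold, whereas fibromodulin and prolargin were within 1.04-fold. Of the 9 measured genes, 3 were called lower and 0 higher. In this comparison 7.01% of the 12803 measured genes were called lower and 5.9% higher, in counts 897 and 756. With scaling to fibroblast markers the counts were 336 lower and 2923 higher. The median log2 ratio was -0.87, against 0.01 for all measured genes. All 9 ratios were below 0, as were 48.9% of those of all measured genes, but with scaling to fibroblast markers those of Dcn, Ogn, Fmod and Prelp were above 0.

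Among the genes of class I, Aspn differed most. Aspn, whose product binds collagen and carries a run of aspartates in place of a glycosaminoglycan chain, had 207 TPM in wild-type cells. In the knockout, negative-control and mimic libraries it had 32.1, 27.1 and 26.8 TPM. The wild-type library alone was high, and the log2 ratio of knockout to wild type was -2.55 (-2.68 to -2.44). Bgn, whose product can also signal through Toll-like receptors, had 6636 TPM in wild-type cells and 3140, 2924 and 3311 TPM in the knockout, negative-control and mimic libraries. Its log2 ratio of -0.95 (-0.96 to -0.94) was just short of 2-fold, and on deposited TPM it was -1.08 and past it. Dcn, which encodes decorin, a regulator of fibril growth that binds TGF-beta, had 108, 65.7, 47.6 and 51.6 TPM, in the same order. Its ratio was -0.58 (-0.70 to -0.47), but 0.10 with scaling to fibroblast markers. The ratio of Aspn minus that of Dcn was -1.97 (-2.14 to -1.81). Intervals on such differences between genes are normal intervals on counts.

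The class II genes differed among themselves. Lum, which encodes lumican, a proteoglycan that can carry keratan sulfate and limits the width of fibrils, had 100.4 TPM in wild-type cells. The knockout, negative-control and mimic libraries had 14.3, 6.74 and 8.65 TPM of it. The log2 ratio of knockout to wild type was -2.67 (-2.88 to -2.49), the lowest of the 9. Fmod encodes fibromodulin, which shares a collagen binding site with lumican and binds lysyl oxidase. Fmod stood at 797 TPM in wild-type, 699 TPM in knockout, 512 TPM in negative-control and 662 TPM in mimic cells. Its ratio of -0.06 (-0.09 to -0.03) was close to 0, and was 0.63 with scaling to fibroblast markers. The Lum to Fmod ratio of TPM went from 0.126 in wild-type to 0.0205 in knockout cells, a difference of -2.62 in log2 ratios (-2.81 to -2.43). Prelp, which encodes prolargin, a heparin-binding protein found near basement membranes, had 570.1, 512, 300.2 and 379 TPM in the same order. Its ratio of -0.03 (-0.06 to 0.006) did not leave 0 and was 0.01 with total-count scaling. Omd encodes osteomodulin, a bone proteoglycan, and was low everywhere. It was counted 80 times in wild-type and 43, 24 and 35 times in knockout, negative-control and mimic cells, so its ratio of -0.87 (-1.46 to -0.33) is known with little precision.

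The remaining genes are Ogn of class III and Podn of class V. Ogn, which encodes osteoglycin, had 135 TPM in wild-type cells and 80.8, 79.6 and 84.5 TPM in the knockout, negative-control and mimic libraries. The 3 knockout libraries stood close together. Its knockout to wild-type ratio was -0.61 (-0.70 to -0.53), but 0.07 with scaling to fibroblast markers. Podn, which encodes podocan, had 55.8 TPM in wild-type cells and 14.4, 13.4 and 15.3 TPM in the other libraries, in the same order. Again the wild-type library alone was high, with a ratio of -1.85 (-2.01 to -1.69). Of 36 pairs of the 9 genes, 30 had knockout to wild-type ratios that differed beyond counting error.

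Most of these genes lie next to each other in the genome, and neighbours did not share a ratio in every cluster. Coordinates are from RefSeq on GRCm38.p6. On chromosome 1, Prelp (133910304 to 133930102) and Fmod (134037254 to 134048280) lie 107.2 kb apart with no other protein-coding gene starting between them, and their ratios differed by 0.03 (-0.01 to 0.08). On chromosome 10, Dcn (97479500 to 97518163) and Lum (97565501 to 97572703) lie 47.3 kb apart, and the ratio of Lum minus that of Dcn was -2.10 (-2.32 to -1.87). On chromosome 13, Aspn (49544443 to 49567565), Omd (49582462 to 49592612) and Ogn (49608015 to 49624501) lie 14.9 and 15.4 kb apart. The ratio of Aspn minus that of Ogn was -1.94 (-2.09 to -1.79), and that of Omd minus Ogn was -0.27 (-0.81 to 0.27). Podn lies on chromosome 4 (108014793 to 108031954) and Bgn on chromosome X (73483601 to 73495936).

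Family members outside the 9 were mostly low. Ecm2, a matrix gene 11.7 kb from Aspn, had 7.21 TPM in wild-type and 1.40 TPM in knockout cells, a ratio of -2.21 (-2.73 to -1.76). Tsku, which encodes tsukushi, stood at 44.1 and 36.1 TPM, a ratio of -0.15 (-0.29 to -0.01). Podnl1, Chadl and Nyx were called lower with 38, 72 and 25 counts in wild-type and 7, 26 and 3 counts in knockout cells, and 0 of the 5 measured genes of this list were called higher. Podnl1 and Nyx were under 1 CPM in knockout cells and were measured only through the wild-type library, so they could be called in no other direction, and of the other 3 genes Ecm2 and Chadl were called lower. Over all 12803 measured genes 7.01% were called lower and 5.9% higher. With scaling to fibroblast markers Chadl was not called, and 336 of all measured genes were called lower and 2923 higher. Optc, Kera, Epyc and Nepn were under 1 CPM in both libraries.

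Overlapping genes could add reads to some members, since it is not stated whether counting used strand. Cenpp, on the opposite strand, spans Aspn, Omd and Ogn and shares 7 exonic bases with Aspn and 0 with the others. It had 1.82 TPM in wild-type and 4.74 TPM in knockout cells, against 5.62 and 2.73 TPM for Omd. An antisense gene shares 350 exonic bases with Prelp. Scp2, on the same strand, overlaps Podn with 0 shared exonic bases and had 125 to 154 TPM, above the 13.4 to 55.8 TPM of Podn.

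**Figure D2:**
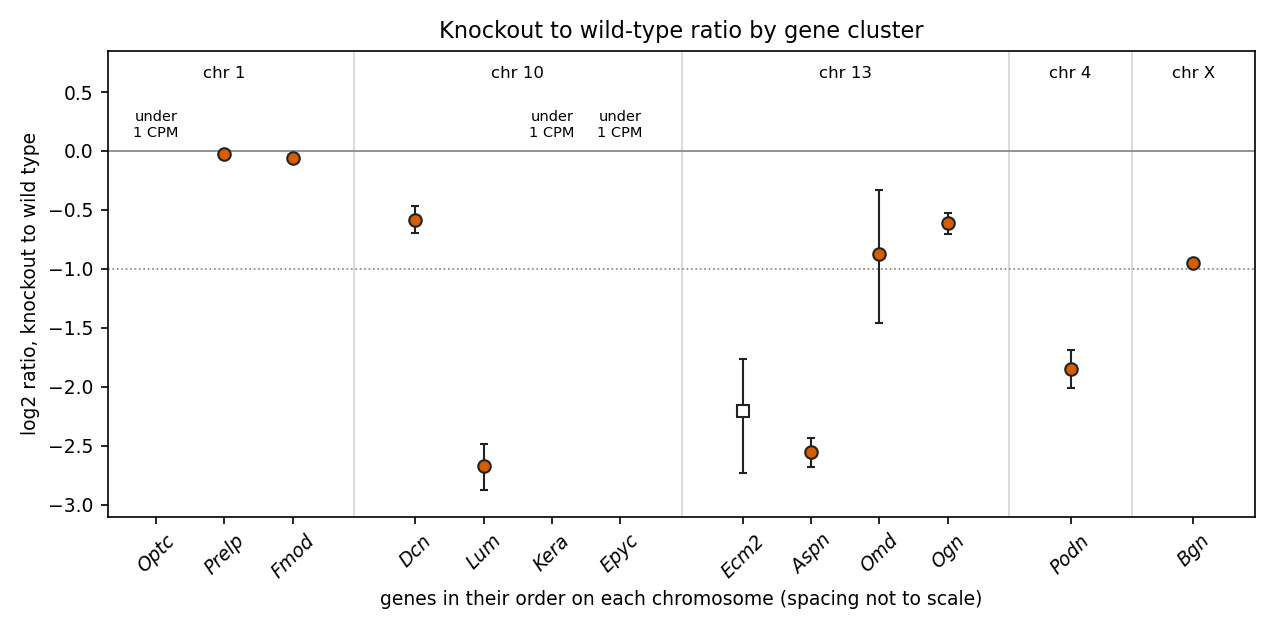
Log2 ratio of knockout to wild type (vertical axis, dotted line at 2-fold lower) for the 9 genes (filled circles) and their neighbours of the same family (open squares), in their order on each chromosome, with 95% counting intervals. Prelp and Fmod lie near 0, at -0.03 and -0.06, while Lum lies below its neighbour Dcn and Aspn below Omd and Ogn; scaling to fibroblast markers turns the ratios of Prelp, Fmod, Dcn and Ogn above 0.

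Of the 11 measured collagens that these proteoglycans bind, 7 were called lower in the knockout library and 1 higher, with a median of -1.10. Over all 12803 measured genes 7.01% were called lower and 5.9% higher. With scaling to fibroblast markers 0 were called lower and 1 higher, and the median was -0.42. Over all measured genes that scaling gave 336 lower and 2923 higher. Col1a2 is also one of the fibroblast markers used for that scaling. Col3a1 stood at -1.58 (-1.59 to -1.57), Col1a2 at -1.05 (-1.06 to -1.04), Col5a1 at -1.10 (-1.12 to -1.08), Col1a1 at -0.94 (-0.95 to -0.93) and Col5a2 at -0.76 (-0.77 to -0.74). Col14a1, Col6a3 and Col6a2 had ratios of -1.46, -1.39 and -1.27. Col12a1 stood at -0.06 (-0.08 to -0.03). Col2a1, a cartilage collagen with 23 counts in wild-type and 206 in knockout cells, was the one called higher.

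Set against Col1a1, the transcript of the type I collagen alpha 1 chain, the proteoglycans did not keep 1 proportion. Bgn differed least, with 1140 TPM per 1000 TPM of Col1a1 in wild-type and 1130 in knockout cells, a log2 difference of -0.01 (-0.03 to 0.007). Omd was at 0.05 (-0.48 to 0.59) by the same measure. Fmod went from 137 to 252 and Prelp from 97.9 to 184 TPM per 1000 TPM of Col1a1, log2 differences of 0.88 (0.85 to 0.91) and 0.91 (0.88 to 0.95). Dcn and Ogn were higher by 0.36 (0.24 to 0.47) and 0.32 (0.24 to 0.41). Lum, Aspn and Podn were lower relative to Col1a1 as well, at -1.74 (-1.93 to -1.55), -1.62 (-1.74 to -1.50) and -0.91 (-1.07 to -0.75). These differences do not depend on the scaling between libraries, and their intervals are normal intervals on counts.

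Markers of several cell types moved with the genotype, and their part in the proteoglycan ratios was not tested. Over all 12803 measured genes 7.01% were called lower and 5.9% higher. With scaling to fibroblast markers 336 of all these genes were called lower and 2923 higher. Macrophage markers were called higher for 11 of 19 measured genes and lower for none, and their summed level was 22936 TPM in wild-type and 34015 TPM in knockout cells. Cd163, with 5 counts in wild-type, 0 in knockout, 1 in negative-control and 6 in mimic cells, was not measured. Of 10 genes of dividing cells, all measured, 10 were called higher. Of 16 measured fibroblast markers, 6 were called lower and 0 higher. Their median was -0.68 and their summed level 17776 TPM in wild-type and 14456 TPM in knockout cells. Their ratios ran from -2.60 (-2.75 to -2.46) for Dpt to 0.92 (0.88 to 0.96) for S100a4. Cartilage and tendon markers were called lower for 4 of 10 and higher for 1. Of these 4, 2 reached 1 CPM in the wild-type library alone and could be called in no other direction. Comp, a tendon and cartilage matrix protein that binds collagen, was another of the 4, at 491 and 80.6 TPM. Adipocyte markers were called lower for 5 of 6, but 4 of these 5, with 1 or 2 counts in knockout cells, reached 1 CPM in the wild-type library alone and could be called in no other direction. Fabp4 was the fifth, with 220.3 and 64.4 TPM. Schwann cell markers were called lower for 5 of 8, skeletal muscle markers for 2 of 6, both of these measured through the wild-type library alone, and synovial lining markers for 2 of 6, with 0 higher in each list. With scaling to fibroblast markers, Schwann cell markers had 1 called lower and 1 higher, and synovial lining markers 1 lower. Fibroblast markers then had 3 lower and 2 higher, cartilage and tendon markers 3 lower and 1 higher, and macrophage markers 19 higher. Pericyte and smooth muscle markers had 1 of 7 called higher and 0 lower, endothelial markers 1 of 3 in either direction, and osteoblast markers 2 of 5 higher and 1 lower. The osteoblast gene called lower was Ibsp, at 0 in the 3 knockout libraries and measured through the wild-type library alone. Of the 2 called higher, 1 was measured through the knockout library alone, so neither it nor Ibsp could be called in the other direction. With fibroblast scaling, 3 pericyte and smooth muscle, 2 endothelial and 3 osteoblast markers were called higher, and 1 osteoblast marker lower.

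Of 21 measured genes for the linker and for chondroitin and dermatan sulfate chains, 1 was called lower and 0 higher, with a median of -0.16. Over all measured genes the shares were 7.01% and 5.9%, so this count is near the background. With scaling to fibroblast markers 0 were called lower and 4 higher, where 336 and 2923 of all 12803 measured genes were. Chsy3, a chondroitin synthase, was the gene called, at -1.37 (-1.71 to -1.06), while Xylt2, a xylosyltransferase that starts the chains, stood at 0.95 (0.84 to 1.07). Chst11, a chondroitin sulfotransferase, was at 0.82 (0.71 to 0.94) and Dsel, a dermatan sulfate epimerase, at -0.76 (-0.89 to -0.62). Of 6 measured genes for keratan sulfate, Chst2, a sulfotransferase, was called lower at -1.20 (-1.42 to -0.998) and B3gnt7, with 12 counts in wild-type and 78 in knockout cells, higher, with a median of -0.12. B3gnt7 was measured through the knockout library alone. With scaling to fibroblast markers 0 of these 6 genes were called lower and 2 higher. Tpst1 and Tpst2, which sulfate tyrosines, stood at -0.09 (-0.27 to 0.09) and 0.27 (0.11 to 0.42).

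Of 12 measured genes for the processing and cleavage of proteoglycans, 4 were called lower and 1 higher, with a median of -0.69. Over all 12803 measured genes 7.01% were called lower and 5.9% higher. With scaling to fibroblast markers 2 were called lower and 2 higher, where 336 and 2923 of all measured genes were. Mmp13, a collagenase, stood at -3.71 (-3.87 to -3.55), Mmp2, a gelatinase, at -1.84 (-1.88 to -1.80) and Adamts4, an aggrecanase, at -1.40 (-1.56 to -1.24). Mmp14, a membrane-bound collagenase, was at -1.02 (-1.05 to -0.98). Mmp3, stromelysin-1, was higher at 1.63 (1.52 to 1.73). Bmp1, which removes the propeptide of biglycan, had 256 and 166 TPM, a ratio of -0.50 (-0.55 to -0.45). Pcolce, a procollagen C-proteinase enhancer, stood at -0.88 (-0.92 to -0.85).

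Of 22 measured receptors and signalling partners of the family, 1 was called lower and 2 higher, near the shares of 7.01% and 5.9% over all measured genes, with a median of 0.15. With scaling to fibroblast markers 0 were called lower and 8 higher, where 336 and 2923 of all 12803 measured genes were. Tlr2 and Tlr4, receptors of soluble biglycan, had ratios of 0.27 (0.11 to 0.43) and 0.45 (0.35 to 0.54). Tgfb1, a ligand that decorin and biglycan can bind, stood at 0.37 (0.30 to 0.43). Cd14, a coreceptor of Toll-like receptors that is also a macrophage marker, was called higher at 2.32 (2.17 to 2.47), Kdr, with 55 and 134 counts, higher too, and Egfr lower at -1.38 (-1.48 to -1.29). Of 19 measured genes of other proteoglycans 2 were called lower, Tgfbr3 at -1.23 (-1.34 to -1.13) and Col18a1 at -1.15 (-1.19 to -1.11), and 0 higher. With scaling to fibroblast markers 0 of these 19 genes were called lower and 3 higher.

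**Figure D3:**
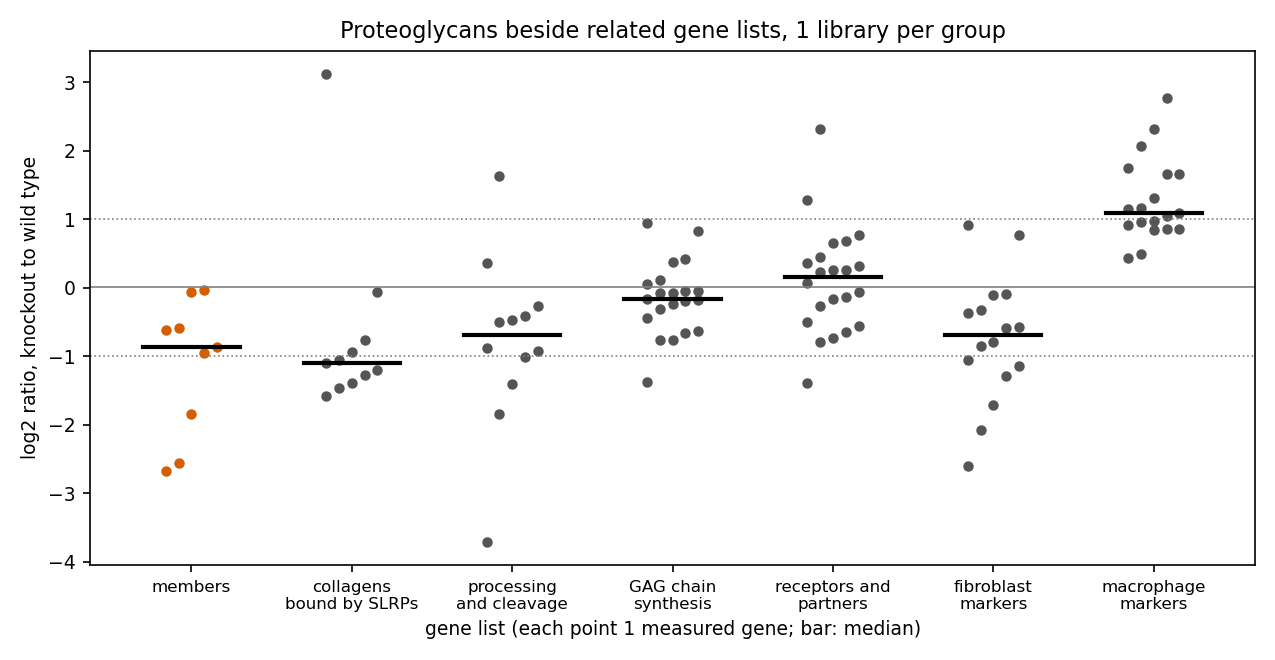
Log2 ratio of knockout to wild type for each measured gene (points) of the 9 proteoglycans and of 6 related lists, with bars for the medians, dotted lines at 2-fold and a grey line at the median of all measured genes, 0.01. The medians are -0.87 for the proteoglycans, -1.10 for collagens, -0.69 for processing, -0.16 for chain synthesis, 0.15 for receptors, -0.68 for fibroblast and 1.10 for macrophage markers; scaling to fibroblast markers turns 4 of the proteoglycans above 0.

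The negative control was compared with untransfected knockout cells to set the transfection apart from the microRNA. Transcripts of lumican, prolargin and osteomodulin were lower by more than 1.5-fold. Of the 9 genes, 1 was called lower and 0 higher, where 0.726% of 12532 measured genes were called lower and 0.303% higher. Over all measured genes 91 were called lower and 38 higher, and with scaling to fibroblast markers 55 and 61. The median of the members was -0.49 against 0.002 for all measured genes. Lum, the gene called, went from 14.3 to 6.74 TPM, a log2 ratio of -1.12 (-1.44 to -0.81), and with scaling to fibroblast markers it was at -0.96 and not called. Prelp stood at -0.81 (-0.84 to -0.77), Dcn at -0.50 (-0.64 to -0.37) and Fmod at -0.49 (-0.52 to -0.46). Omd, with 43 and 24 counts, had a ratio of -0.98 (-1.79 to -0.25), and Aspn stood at -0.29 (-0.45 to -0.12). Bgn was at -0.14 (-0.16 to -0.13), Podn at -0.13 (-0.33 to 0.08) and Ogn at -0.06 (-0.15 to 0.03), and these 3 ratios were above 0 with scaling to fibroblast markers. Fmod and Prelp, whose ratios between genotypes did not differ beyond counting error, differed here by -0.32 for Prelp minus Fmod (-0.37 to -0.27).

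The mimic was compared with the negative control to see which genes differ when miR-26a is supplied to knockout cells. No member was called in either direction, where 0.36% of 12512 measured genes were called lower and 0.855% higher, in counts 45 and 107, and with scaling to fibroblast markers 66 and 91. Of the 9 ratios 8 were above 0 and 1 below, with a median of 0.20 against -0.008 for all measured genes. Fmod and Prelp stood at 0.36 (0.33 to 0.39) and 0.33 (0.29 to 0.37), and Lum at 0.35 (0.005 to 0.70). Podn was at 0.20 (0.008 to 0.40) and Bgn at 0.17 (0.16 to 0.19). The intervals of Dcn at 0.11 (-0.04 to 0.25), Ogn at 0.08 (-0.01 to 0.17) and Omd at 0.62 (-0.15 to 1.45) included 0. Aspn, the transcript with the 8-base seed site, was the member below 0, at -0.025 (-0.19 to 0.15), an interval that includes 0. Relative to Col1a1, which was higher in the mimic library at 0.23 (0.22 to 0.24), Aspn differed by -0.26 (-0.43 to -0.09), Ogn, with no site, by -0.15 (-0.25 to -0.06) and Bgn by -0.06 (-0.08 to -0.04). The ratio of Aspn minus that of Ogn was -0.10 (-0.29 to 0.09), and minus that of Dcn -0.13 (-0.35 to 0.09). Minus that of Omd the difference was -0.665 (-1.433 to 0.103), so Aspn was not separated from these genes without a site. Aspn was separated from Bgn, which has only ACTTGA, at -0.196 (-0.364 to -0.028). Relative to Col1a1, Fmod, with no site, at 0.13 (0.098 to 0.162), and Prelp, with ACTTGAA, at 0.095 (0.056 to 0.134), lay above the interval of Aspn. The intervals of Podn, with ACTTGAA, at -0.03 (-0.22 to 0.17), and of Lum, Dcn and Omd, with no site, overlapped it. Whether the site had a part in these differences was not tested.

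Of the other lists, with the mimic against the negative control, collagens had 1 of 11 called higher (Col2a1, also a cartilage marker), chondroitin and dermatan sulfate synthesis 1 of 21 (Chsy3), keratan sulfate synthesis 1 of 6 (Chst1) and other proteoglycans 1 of 18 (Acan), where 0.855% of all measured genes were called higher. None of these lists had a gene called lower, and the processing list, the receptors and the tyrosine sulfation list had 0 called. With scaling to fibroblast markers Col2a1 was not called. Chsy3 and Acan were called lower for the negative control against untransfected knockout cells, at -1.16 and -2.08. For the mimic against untransfected knockout cells Col2a1, Chsy3, Chst1 and Acan were not called, and Chsy3 stood at 0.25 (-0.11 to 0.63). Tgfb3, a TGF-beta ligand, stood at -0.81 (-0.91 to -0.72) for the negative control against knockout cells and at 0.84 (0.74 to 0.93) for the mimic against the negative control. Markers of other cell types moved between these libraries too, and their part in the proteoglycan ratios was not tested. Cartilage and tendon markers had 2 of 8 called lower for the negative control against knockout cells, with a median of -0.55, and 4 of 9 called higher in the mimic library than in the negative-control library, at a median of 0.73. The 4 were Acan, Col2a1, Scx and Tnmd, of which Acan and Tnmd reached 1 CPM in the mimic library alone, and 2 of the 4 were called with scaling to fibroblast markers. Their summed level was 125.0, 73.8 and 118.7 TPM in the knockout, negative-control and mimic libraries, and Comp had 80.6, 45.02 and 74.9 TPM. Osteoblast markers had 2 of 4 and skeletal muscle markers 2 of 3 called lower with the negative control, on at most 70 counts. Over all measured genes 0.726% were called lower in that comparison. Both muscle genes and 1 of the 2 osteoblast genes reached 1 CPM in the untransfected knockout library alone, and could only be called lower. None was called for the mimic against the negative control. The mimic against untransfected knockout cells had 1 of 4 osteoblast markers called lower, Alpl at -1.26 (-1.96 to -0.655), with 70 and 30 counts. Skeletal muscle markers had 0 of 3 called there. Acan, 1 of the 2 cartilage and tendon markers called lower with the negative control, also reached 1 CPM in the untransfected knockout library alone. Synovial lining markers had medians of -0.37 and 0.52 in these comparisons with 0 of 6 called. Macrophage, fibroblast, Schwann cell, pericyte, endothelial, adipocyte and dividing-cell markers had 0 called in both, and the summed macrophage level lay between 32980 and 34015 TPM in the 3 knockout libraries.

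Set against untransfected knockout cells, the mimic library gave lower values for several members. The negative-control and untransfected comparisons share libraries with each other, so their values are given side by side and not as independent evidence. Against untransfected cells 0 of 9 members were called, where 0.471% of 12536 measured genes were called lower and 0.263% higher. In counts these were 59 and 33, and 45 and 41 on deposited TPM, where calls used the fold alone. Lum stood at -0.77 (-1.07 to -0.48), Prelp at -0.48 (-0.51 to -0.44), Dcn at -0.40 (-0.53 to -0.26), Aspn at -0.31 (-0.48 to -0.14) and Fmod at -0.12 (-0.15 to -0.09). Omd was at -0.36 (-1.05 to 0.31). Bgn at 0.03 (0.015 to 0.05), Ogn at 0.02 (-0.07 to 0.11) and Podn at 0.08 (-0.12 to 0.28) were near 0. For Prelp and Fmod the mimic library thus lay between the negative-control and the untransfected knockout library beyond counting error. Lum lay between them too, but its interval against the negative control, 0.005 to 0.70, barely left out 0. Relative to Col1a1 the difference of Lum from the negative control was 0.12 (-0.22 to 0.46). Dcn and Omd lay between them as well, but Dcn was not separated from the negative control, nor Omd from either library.

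**Figure D4:**
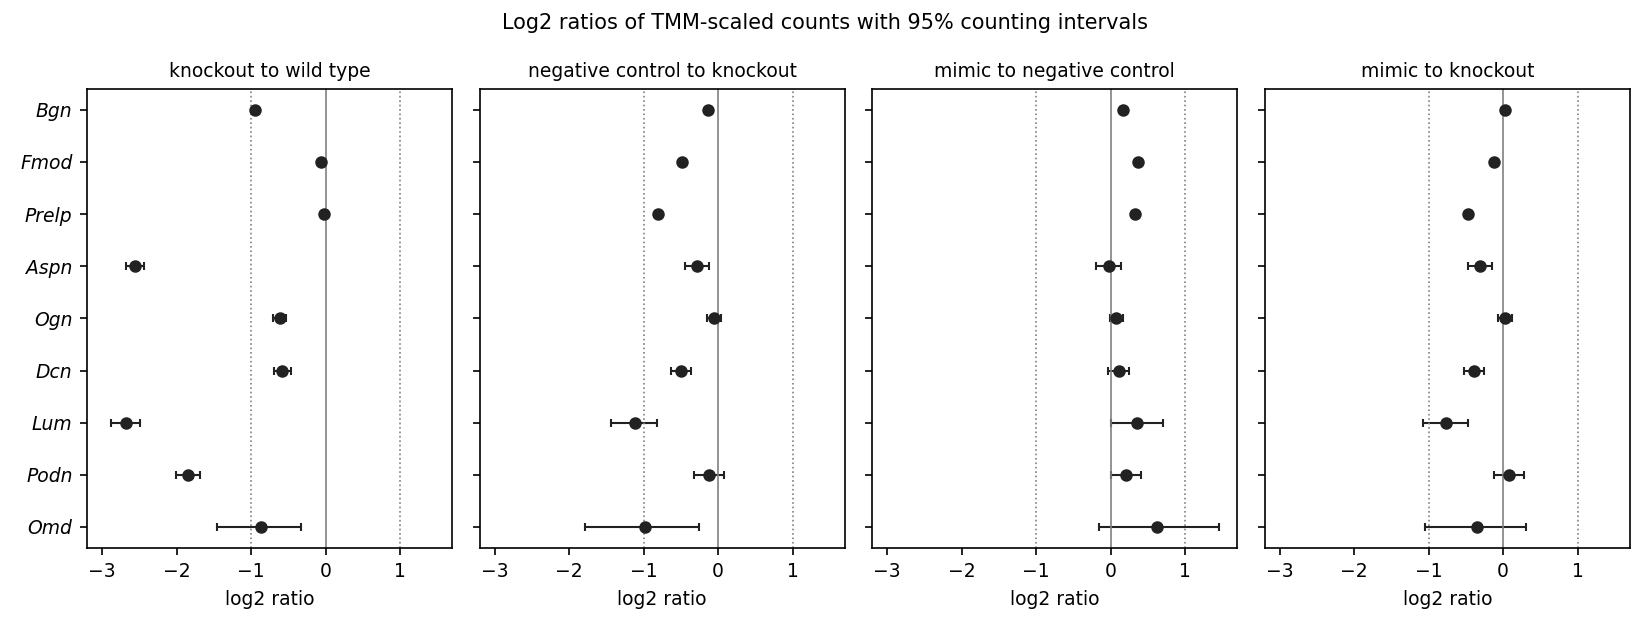
Log2 ratios (horizontal axes, dotted lines at 2-fold) with 95% counting intervals for the 9 genes in knockout to wild type, negative control to knockout, mimic to negative control and mimic to knockout, 1 library each. Aspn, Lum and Podn stand below 2-fold lower for knockout to wild type, Lum also for negative control to knockout, and no gene passes 2-fold for mimic to negative control or mimic to knockout; with scaling to fibroblast markers Lum does not pass 2-fold for negative control to knockout, Dcn, Ogn, Fmod and Prelp are above 0 for knockout to wild type, and Bgn, Ogn and Podn are above 0 for negative control to knockout.

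The mimic library was also set against wild-type cells, which asks how near it comes to the wild-type levels. Of the 9 genes 4 were called lower and 0 higher, where 7.71% of 12793 measured genes were called lower and 5.81% higher, in counts 986 and 743, and with scaling to fibroblast markers 419 and 2413. The median was -0.98 against 0.016. Lum was 10.9-fold lower, at -3.44 (-3.70 to -3.21), and Aspn 7.28-fold lower, at -2.86 (-2.997 to -2.74). Podn stood at -1.77 (-1.93 to -1.61) and Omd at -1.23 (-1.87 to -0.66), the latter at -0.60 with scaling to fibroblast markers and then not called. Dcn, at -0.98 (-1.10 to -0.86), was lower than in the knockout to wild-type comparison. Bgn was at -0.92 (-0.93 to -0.90), and on deposited TPM Dcn and Bgn were past 2-fold, at -1.06 and -1.003. Ogn at -0.59 (-0.68 to -0.51), Prelp at -0.50 (-0.54 to -0.47) and Fmod at -0.18 (-0.21 to -0.15) were lower too, but above 0 with scaling to fibroblast markers. No library of knockout cells had a member at or above its wild-type TPM, but with total-count scaling Prelp was at 0.01 for knockout to wild type.

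Genes with the most similar pattern were sought by the Euclidean distance of log2(TPM + 1), centred over the 4 libraries, among 9177 genes with at least 10 TPM in a library. For Aspn these were Gm42048 at 0.131, Dpt, which encodes the collagen-binding dermatopontin, at 0.156 and the chemokine gene Cxcl12 at 0.206. For Lum they were farther, with Fxyd1 at 0.429, Sfrp2 at 0.432 and Comp at 0.523. For Bgn the nearest were Mmp17 at 0.030, Runx1 at 0.054 and Gli3 at 0.066, and for Podn Ednrb at 0.057, Plagl1 at 0.090 and Adgrg2 at 0.101. For Fmod they were Pfkl, Gprasp1 and Sgcd at 0.061 to 0.069, and for Prelp Fam162a, Cnrip1 and S100b at 0.113 to 0.189. For Dcn they were Fgfr2, Dcaf6 and Trabd2b at 0.083 to 0.101, for Ogn Foxk1, Kifc3 and Gm46911 at 0.022 to 0.034, and for Omd Slc27a3, Lpar1 and Pgf at 0.112 to 0.124. Among the members the closest pairs were Dcn and Omd at 0.241, Fmod and Prelp at 0.322 and Bgn and Ogn at 0.324, and the farthest was Lum and Fmod at 2.57. With 4 libraries such distances describe levels and nothing further.

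Promoters are printed for Prelp and Fmod, neighbours with like ratios between genotypes, and for Aspn, which lies in another cluster and had one of the lowest ratios. Each spans 250 bases before to 50 after the start (RefSeq, GRCm38.p6), and 7 of the 9 genes were matched, without Dcn and Lum. The start used for Prelp lies inside its longest annotated span. Capitals mark matches on either strand to CCAAT, the CCAAT box, or TATAAA, the TATA box.
Prelp, chr1:133921352-133921651, minus strand: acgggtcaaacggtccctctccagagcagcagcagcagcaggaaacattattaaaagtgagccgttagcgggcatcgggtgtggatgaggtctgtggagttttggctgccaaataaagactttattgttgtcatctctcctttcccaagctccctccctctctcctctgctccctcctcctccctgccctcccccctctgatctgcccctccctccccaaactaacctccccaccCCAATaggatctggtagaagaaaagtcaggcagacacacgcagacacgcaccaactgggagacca
Fmod, chr1:134037004-134037303, plus strand: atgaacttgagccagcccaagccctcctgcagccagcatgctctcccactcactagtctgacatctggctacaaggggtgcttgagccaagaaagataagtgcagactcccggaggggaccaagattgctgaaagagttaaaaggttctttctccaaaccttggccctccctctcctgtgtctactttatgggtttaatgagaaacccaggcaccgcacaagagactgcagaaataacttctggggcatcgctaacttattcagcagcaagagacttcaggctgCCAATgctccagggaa
Aspn, chr13:49544193-49544492, plus strand: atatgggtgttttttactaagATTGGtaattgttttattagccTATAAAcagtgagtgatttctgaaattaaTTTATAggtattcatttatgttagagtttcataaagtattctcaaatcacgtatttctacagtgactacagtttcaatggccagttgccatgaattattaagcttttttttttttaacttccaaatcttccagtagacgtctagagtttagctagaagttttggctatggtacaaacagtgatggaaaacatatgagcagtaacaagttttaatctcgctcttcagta
A CCAAT match was present for 3 of the 7 matched genes, the 3 printed here, and in 37.4% of 32851 promoters of the same length. TATAAA was found for Aspn and Ogn and in 13.6% of all, and the GC box GGGCGG for Bgn and the first promoter of Podn and in 35.7%. The AP-1 sequence TGACTCA matched none of the 7 and 5.2% of all. The 2 TATAAA matches of Aspn begin 178 and 207 bases before its start, and the CCAAT match of Fmod lies 34 bases after its start. The base composition ranged from 31.0% G and C for Aspn to 77.0% for the first promoter of Podn, against a median of 52.7% over all promoters. These matches describe letters only.

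In the authors' deposited table the log2 ratio of knockout to wild type was -2.69 for Lum, -2.57 for Aspn, -1.86 for Podn, -0.96 for Bgn, -0.07 for Fmod and -0.04 for Prelp. For the negative control against knockout cells the authors' deposited table gives -0.96 for Lum, against -1.12 here. It is of the other sign for 3 members, since the authors' deposited table gives 0.02 for Bgn, 0.11 for Ogn and 0.04 for Podn, against -0.14, -0.06 and -0.13 here. For the mimic against the negative control the authors' deposited table gives 0.01 for Dcn, -0.12 for Aspn and, again of the other sign, -0.02 for Ogn, against 0.08 here. The log2 ratios of the authors' deposited table equal the ratio of unscaled counts within 0.01 for every gene counted in both libraries, 14600 to 14642 genes, in each of its 4 comparisons, so they carry the differences in depth between libraries.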

How the data were processed

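RNA of 4 cultures, 1 library per group, was sequenced, with groups as labelled. FastQC, Bowtie2 and HISAT, and the genome builds mm10 and GRCm38.p6, are named in the submitters' processing notes. The quantification tool, annotation and strand setting were not given in the sources used here. Per the file headers, the authors deposited read counts, treated here as estimated counts because 4.99% to 5.28% of a library's values hold decimals. They also deposited TPM, used for levels, and FPKM and a signal of normalized counts, neither used. The authors' deposited comparison table gives log2 ratios, quoted here, and PoissonDis p-values, not used since each group has 1 library.

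Counts were rounded and scaled with edgeR TMM factors of 0.978 (wild type), 1.00 (knockout), 1.02 (negative control) and 0.997 (mimic), and log2 ratios carry a prior of 1 count. Intervals on ratios and shares cover only counting error, as reads may be copies of 1 molecule. The members, 8 gene lists, 11 marker lists and comparisons were chosen with earlier results of these data known. Named were all members, other family genes in the table, preset collagens, proteases and receptors, and the 3 nearest patterns per member. Genes were also drawn per list from the 4 of largest ratio with at least 5 TPM and from the 5 most abundant markers. Not all genes that meet these last 2 rules are named. Dpt, Comp, Ibsp, Alpl, Fabp4, Cd163, Cenpp, Scp2, B3gnt7, Kdr, Col2a1, Col12a1, Acan, Scx and Tnmd were added after their values were seen. Alternatives were total-count and DESeq2 scaling, deposited TPM with 0.1 added, a prior of 5 counts, 5 CPM or no minimum, a 1.5-fold limit, and scaling to the median ratio of fibroblast markers. Sites were sought in the 15649 genes with a 3′ UTR in GENCODE M21. The procedure was tested on simulated data. Python 3.11.15 (pandas 2.3.3, numpy 2.4.6, scipy 1.17.1, matplotlib 3.10.9) and R 4.3.3 (DESeq2 1.42.0, edgeR 4.0.16) were used.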

Additional observations from a re-analysis of the deposited data

How the results depend on the processing

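No paired analysis was possible because each group holds 1 library, and for the same reason no library could be left out. Scaling to fibroblast markers moved the median of all genes to 0.69 for knockout to wild type, 0.16 for negative control to knockout and 0.64 for mimic to wild type, and deposited TPM moved the first to -0.11. With fibroblast scaling the members' medians became -0.19, -0.33 and -0.35 for these 3 comparisons, the calls over all genes 3259 for knockout to wild type (336 lower, 2923 higher) and 2832 for mimic to wild type (419 lower, 2413 higher), and the members called for negative control to knockout 0. With deposited TPM a call used the fold alone, without an interval. By that rule 5 members were called for knockout to wild type in place of 3, Bgn at -1.08 and Omd at -1.02 being added. Of all calls 64.0% were then lower in place of 54.3%. The members' median for negative control to knockout was -0.45 on deposited TPM. At 1.5-fold the members called were 6 for knockout to wild type, 3 for negative control to knockout, 1 for mimic to knockout and 7 for mimic to wild type, and the calls over all genes 3134, 462, 367 and 3219, with 568 for mimic to negative control. At 5 CPM the calls over all genes were 38 for negative control to knockout, 53 for mimic to negative control and 12 for mimic to knockout, and the members' median for negative control to knockout was -0.39. Without a minimum the calls were 212 for negative control to knockout and 159 for mimic to knockout, and with a prior of 5 counts 83 and 57. The cause of these shifts was not tested beyond what each alternative sets. Of 225 ratios of single members under the alternatives, 174 stayed within the counting interval and 51 moved outside it, and no called ratio changed sign. Depth limits Omd most, with 24 to 80 counts.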
